A study of Homo sapiens with 20 samples.

Results

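The regions described here are stretches of RNA crosslinked to IGF2BP3 whose share of the reads was at least 2 times higher after arsenite than after its vehicle, in HCT116 cells. The data are PAR-CLIP libraries, in which 4-thiouridine built into RNA is crosslinked to the bound protein and read as T-to-C conversions, and the authors deposited a list of bound clusters with read counts for each library. Clusters of the 3 arsenite and 3 PBS libraries were merged where they overlapped by 1 nt or more on a strand, without the mitochondrial chromosome. Of 47942 merged regions, 8580 held 40 or more reads over the 6 libraries and 7001 of these had a cluster in all 3 arsenite lists. Among the 7001, 2523 regions (36.0%) had a mean arsenite share at least 2 times the mean PBS share and are called raised regions. The regions were thus chosen by their arsenite and PBS shares, and these values are given as a description, without a test.

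The cells were an HCT116 colorectal carcinoma derivative of genotype Tet-OsTIR1-PURO, grown as 5 dishes per condition, and all of them had received 100 µM 4-thiouridine for 15 h. One set of cells received PBS (1 part in 1000) or 250 µM sodium arsenite for 2 h. The titles say arsenite, whereas the sample characteristics and treatment protocol say arsenate. Another set received DMSO (1 part in 1000) for 4 h or tunicamycin at 5 µg/mL for 1 h (TM 1 h) or 4 h (TM 4 h). For every condition there were 3 immunoprecipitations of IGF2BP3, and 1 IgG control library. Library names place all PBS and arsenite libraries in set S143, replicates 1 and 2 of the DMSO and tunicamycin groups in set S142, and their replicates 3 with their IgG libraries in set S141. The protocol names more than 1 RNase concentration without assigning it to libraries, so a part of this in any difference was not tested. Whether libraries of a group came from separate cultures is not stated, so the spread and p-values refer to these libraries and may be technical.

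IGF2BP3 is an oncofetal RNA-binding protein that binds mRNAs, mostly in coding sequence and 3′ untranslated regions, and is known for controlling their stability, localisation and translation. Its family binds short CAU-containing motifs in PAR-CLIP data. Arsenite is an electrophilic and proteotoxic stressor that is known to induce immediate early transcription factors, HSF1-driven chaperones and metal-responsive genes, and to form stress granules, in which IGF2BP proteins are found. Tunicamycin blocks N-glycosylation in the endoplasmic reticulum and starts the unfolded protein response. Cluster reads follow how much of an RNA a cell holds as well as how much of it is bound, and the 2 cannot be told apart here.

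The sequences below show what the strongest raised regions look like at the mode position that the deposited file gives for the deepest cluster of the region. Each is 30 nt in RNA orientation, written with T, from the authors' deposited cluster sequences on GRCh38. Capitals mark T, the only base at which 4-thiouridine can give a conversion.

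EGR1 middle region, chr5:138467425-138467454, plus strand: aaccggcccagcaagacgcccccccacgaa
EGR1 end region, chr5:138468125-138468154, plus strand: agagacTTaaaggacaggaggaggagaTgg
EGR1 start region, chr5:138465904-138465933, plus strand: TccTcggcgccgccggggccccagagggca
DNAJB1, chr19:14515904-14515933, minus strand: gagcTccccaaggacTgaccagggaccTTT
FOS, chr14:75281443-75281472, plus strand: gcagccggcacccacaagTgccacTgcccg
IER2, chr19:13154714-13154743, plus strand: TggaaaggcaTaaggcTgagcTgagaccag
ATF3, chr1:212620242-212620271, plus strand: cccagcgTTaacacaaaaTccaTgggcagT
NFE2L2, chr2:177231456-177231485, minus strand: TcagTgaTTcTgaagTggaagagcTagaTa
ZFP36, chr19:39407827-39407856, plus strand: cccTggagccTgagccccTccgacTccagc
NR4A1, chr12:52058769-52058798, plus strand: cTgTggcgggcgagccccagccagccagcT

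For contrast, these are windows of regions that were not raised although their arsenite shares were among the highest.

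CDKN1A, chr6:36685732-36685761, plus strand: TTcTgcTgTcTcTccTcagaTTTcTaccac
HMGA1, chr6:34246002-34246031, plus strand: caTggcaggcTgggTgaccgacTaccccag
PAICS, chr4:56460703-56460732, plus strand: gcTcacaccTacgaTcacagcacTTcggga
DCBLD2, chr3:98797777-98797806, minus strand: caaTTTgaaTaaagaTgaacagTaTTTgTT

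The window of the middle EGR1 region held 0 T and 15 C, that of FOS 2 T and 14 C, and that of ZFP36 4 T and 15 C. The EGR1 end region (3 T and 2 C), IER2 (4 T and 5 C) and NFE2L2 (8 T and 3 C) were not rich in C. Unraised windows varied as well, from 12 T and 11 C in CDKN1A to 4 T and 10 C in HMGA1 and 5 T and 9 C in EEF2, so these windows alone do not separate the sets. Over whole clusters, T made up 15.8% of the middle EGR1 cluster, 17.7% of the ZFP36 cluster and 35.1% of the FOS cluster, so the FOS cluster as a whole was not poor in T.

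Depth differed widely between libraries. The 15 anti-IGF2BP3 libraries held 40353 to 1353261 cluster reads and the 5 IgG libraries 268 to 2104. PBS replicate 2, at 40353 reads, stood apart from PBS replicates 1 and 3 (237308 and 222040) and from the arsenite libraries (213047, 380659 and 814702). A list holds only clusters that were called, so a value of 0 means that no cluster was listed. Levels are given as reads per 1000000 cluster reads of the library (RPM). In PBS replicate 2 a median cluster had 7 reads, or 173 RPM, and 2381 of the 2523 raised regions had an arsenite mean below that level. That library listed a cluster in 45 raised regions (1.78%) and in 2068 of the 4478 regions not raised (46.2%), and PBS replicates 1 and 3 listed one in 1260 and 1068 raised regions. Without it the rule found 1990 regions, which overlapped 1894 of the 2523. The membership rested most on arsenite replicate 3, the deepest of the 6 libraries, without which the rule found 1176 regions that overlapped 985 of the 2523. Of 8 colon epithelial markers, KRT8 had clusters in 14 of the 15 libraries, EPCAM in 13, CDH1 in 10, KRT19 in 8, CLDN4 in 7, KRT18 in 4, CDX2 in 2 and VIL1 in 0, and the 4 leukocyte, 4 fibroblast and 3 endothelial markers in none.

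In the arsenite libraries the raised regions together held 24.2%, 20.9% and 17.3% of the cluster reads of replicates 1, 2 and 3. The PBS libraries had 5.63%, 1.03% and 5.17% there, and all 3 arsenite values lay above them, as the rule makes likely. The libraries that the rule did not use set the level outside arsenite: DMSO had 6.44%, 6.97% and 6.98%, TM 1 h 4.51%, 6.16% and 6.53%, and TM 4 h 8.18%, 8.56% and 7.29%. No library of these 9 reached the lowest arsenite library. Of the raised regions, 9 had a cluster in at least 1 IgG list, against 138 of the 4478 regions that were not raised. The IgG lists of PBS and arsenite are named for each other's treatment, and the sample to which each is attached was followed.

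**Figure D1:**
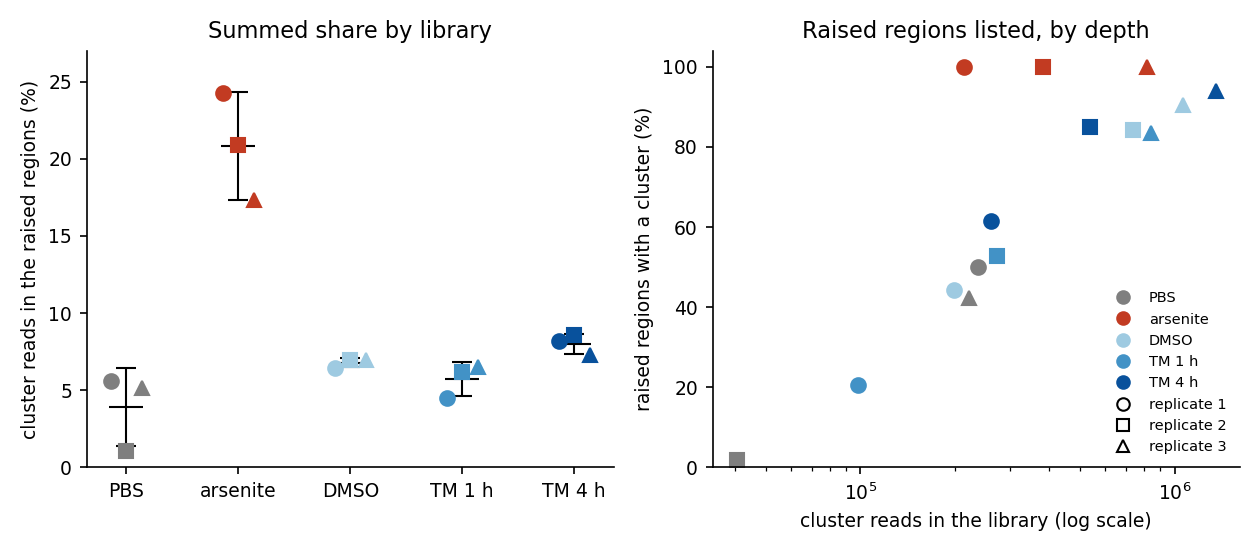
Left, percentage of each library's cluster reads that lay in the raised regions, by group; the bars give mean and SD of 3 libraries. Right, percentage of the raised regions with a cluster in each library against its cluster reads on a log axis; the arsenite libraries sit at 100 by the rule, and the others span 1.78% (PBS replicate 2, the shallowest) to 94.0% (TM 4 h replicate 3, the deepest).

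Many raised regions had no or few PBS clusters. In 852 regions no PBS library listed one, in 1007 a single library did, in 626 a pair did and in 38 all 3 did. A region with no PBS cluster meets the ratio by the rule, so the 852 were fixed as raised. For the 1671 regions with a PBS cluster the median ratio of arsenite to PBS was 3.47, with 653 regions at 4 or more and 83 at 10 or more. All 3 arsenite shares lay above all 3 PBS shares in 1808 raised regions, and 26.7% of the 7001 regions had this order; the rule used that contrast. At the threshold stood ZNF562 with a ratio of 2.0006 and FXR1 with 2.001 just inside, and R3HDM1 with 1.9985 and PPP3CA with 1.9990 just outside. The nearest inside region, in the zinc finger gene ZNF562, had 65.7, 73.6 and 49.1 RPM in arsenite and 71.6, 0 and 22.5 in PBS, which overlap. DMSO gave it 80.7, 57.0 and 70.3, above the arsenite mean of 62.8.

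The DMSO libraries took no part in the rule, although the arsenite values did, so this comparison too is a description. The arsenite mean was at least 2 times the DMSO mean in 1751 raised regions (69.4%) and in 356 regions that were not raised (7.95%), and 30.1% of the 7001 regions met this. All 3 arsenite shares were above all 3 DMSO shares in 1726 raised regions, beside 30.9% of all 7001. The arsenite shares were above all 12 other anti-IGF2BP3 libraries in 1116 raised regions, beside 16.3% of all 7001. Conversely, 172 raised regions had an arsenite mean at or below the DMSO mean, beside 41.0% of all 7001. A higher mean in DMSO than in PBS was found in 1951 raised regions, beside 53.3% of all 7001; the rule chose regions for a low PBS share, so nothing is read from this count. The median share over the raised regions was 47.9 RPM in arsenite, 9.01 in PBS, 18.2 in DMSO, 12.5 after tunicamycin for 1 h and 23.3 after 4 h. Regions not raised had medians of 58.6, 76.6, 68.8, 73.9 and 66.3 in the same order. The TM 4 h mean was at least 2 times the DMSO mean in 600 raised regions, beside 11.4% of all 7001, and the raised regions had the lower DMSO shares. DMSO and arsenite libraries belong to different library sets and times (4 h and 2 h), so treatment, time and set cannot be told apart in these values.

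Immediate early transcription factors led the raised regions. EGR1, a zinc finger transcription factor induced within minutes of many stimuli, held the 2 regions with the highest arsenite shares. The middle region, chr5:138466743-138468103, had 13326, 11283 and 8846 RPM in the arsenite libraries, 501, 966 and 721 in PBS, and 1291, 759 and 1284 in DMSO. Its means were 11152 ± 2243 in arsenite (SD, n = 3), 730 ± 233 in PBS and 1111 ± 305 in DMSO. The groups lay far apart, 15.3 times over PBS and 10.0 times over DMSO. The anti-IGF2BP3 tunicamycin libraries stayed at 264 to 980. The TM 4 h IgG library, with 870 cluster reads in all, had 19 reads in this region, or 21839 RPM. No other IgG library listed a cluster there. The region also shared a 30-nt stretch with another region, so its values are uncertain to that extent.

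The end region of EGR1, chr5:138468119-138469287, had 6684, 5433 and 4753 RPM in arsenite against 341, 644 and 671 in PBS and 998, 698 and 1166 in DMSO. Its start region, chr5:138465456-138465933, had 1070, 862 and 685 in arsenite, no PBS cluster, and 0, 19.0 and 122 in DMSO. All 4 EGR1 regions in the 3 arsenite lists were raised, and the gene's summed share was 17696 ± 3405 in arsenite, 1282 ± 396 in PBS and 2114 ± 572 in DMSO.

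The AP-1 factors, leucine zipper proteins that bind DNA as FOS and JUN dimers, had 22 of 22 regions raised, from 6 genes. Of these regions 19 had no PBS cluster and so met the ratio by the rule. The FOS region at chr14:75281048-75282149 had 2708, 2506 and 1806 RPM in arsenite. No PBS library listed it, and DMSO had 0, 0 and 35.6, so its arsenite and DMSO values do not meet. FOSB had 6 raised regions, the highest at 516, 541 and 276 in arsenite and 0, 0 and 29.99 in DMSO. JUN had 4 raised regions summing to 593 ± 42.5 in arsenite, with no cluster in PBS or DMSO.

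FOSL1, an AP-1 member that carcinoma lines express without stress, differed from these. Its region had 1385, 1471 and 1079 RPM in arsenite and 607, 768 and 576 in PBS. The ratio of 2.02 put it just inside the rule, although all 3 arsenite values were above all PBS values. With TM 4 h it had 411, 403 and 319 against 711, 531 and 630 in DMSO, and its region test gave an unadjusted p of 0.00124 and an adjusted p of 0.983 (edgeR).

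The orphan nuclear receptor NR4A1 had a region with 1164, 1017 and 676 RPM in arsenite, 37.9, 0 and 0 in PBS, and 40.3, 35.3 and 142.5 in DMSO. In all, the EGR and NR4A genes had 29 of 30 regions raised, the exception being in NAB1, an EGR co-repressor. Of the 30 regions, 23 had no PBS cluster and so met the ratio by the rule. The arsenite means were at least 2 times the DMSO means in all 29 raised regions, as they were in all 22 of AP-1. Summed over its regions, the EGR and NR4A list had 23159 ± 4182 RPM in arsenite, 1450 ± 345 in PBS, and 2647 ± 905 in DMSO. TM 1 h had 1066 ± 354 and TM 4 h 1805 ± 425.

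Other immediate early and RNA decay genes had 34 of 51 regions raised. IER2, a nuclear immediate early protein, had 2553, 2251 and 1551 RPM in arsenite and 388, 991 and 477 in PBS. ZFP36 encodes tristetraprolin, which binds AU-rich elements and promotes mRNA decay, and had 1258, 1198 and 928 in arsenite against 21.1, 0 and 0 in PBS and 0, 51.6 and 74.0 in DMSO. The MAP kinase phosphatase gene DUSP2 had 333, 320 and 333 in arsenite, no PBS cluster and 0, 0 and 4.69 in DMSO. In each of these 3 genes the arsenite libraries were above every other anti-IGF2BP3 library. Genes of this list whose regions were all unraised were BTG2, DUSP4, DUSP6, RHOB, SRF and ZFP36L2.

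**Figure D2:**
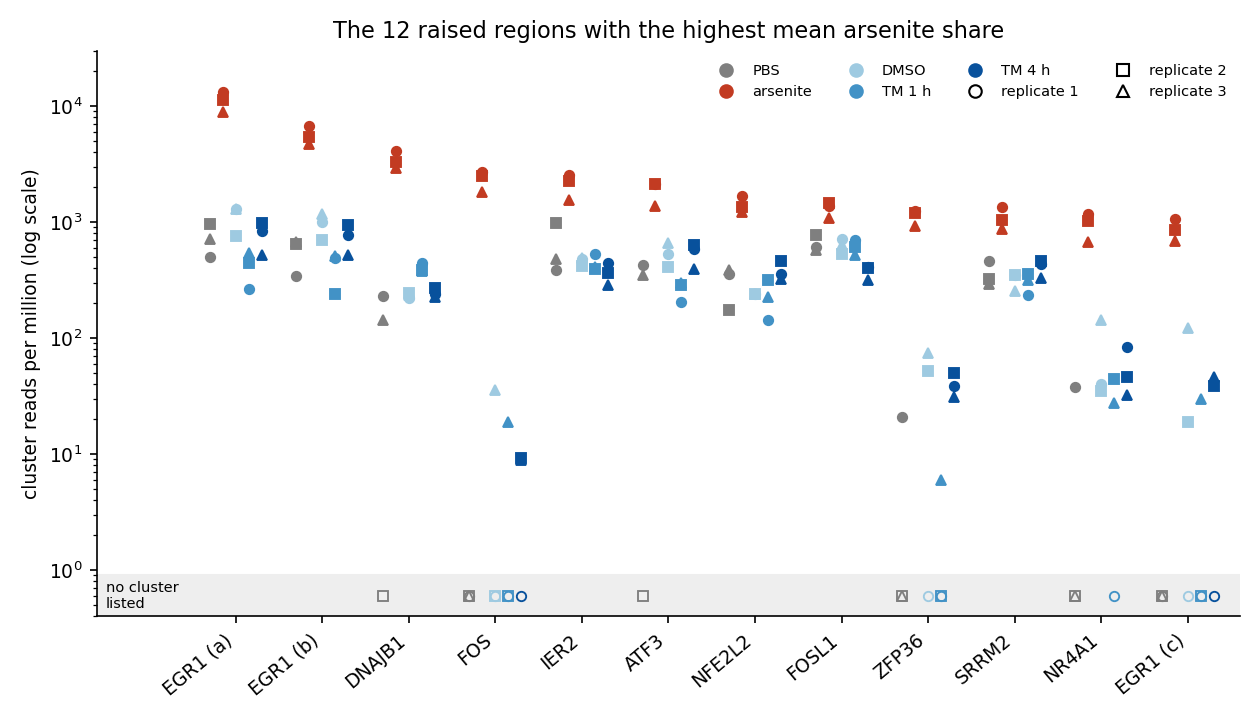
Cluster RPM in each of the 15 anti-IGF2BP3 libraries, on a log axis, for the 12 raised regions with the highest mean arsenite share; EGR1 (a), (b) and (c) are its middle, end and start regions, and open symbols in the grey strip mark libraries with no cluster listed. The arsenite points lie above all other points in each of the 12 regions, by the smallest margin in FOSL1.

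Chaperone genes driven by HSF1 had 47 of 66 regions raised, and 21 of the 66 had no PBS cluster. DNAJB1, an HSP40 co-chaperone of HSP70, had 4098, 3302 and 2920 RPM in arsenite at chr19:14514789-14516037, 232, 0 and 144 in PBS, and 222, 246 and 233 in DMSO. That is 14.7 times the DMSO mean, with TM 1 h at 446, 386 and 377 and TM 4 h at 242, 271 and 226. BAG3, an HSP70 co-chaperone, had 7 raised regions that summed to 624 ± 35.4 in arsenite, with no cluster in PBS and 40.2 ± 35.0 in DMSO. The sum over the list was 15829 ± 1932 in arsenite, 7427 ± 1468 in PBS and 5772 ± 1064 in DMSO.

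The list was not raised throughout. HSP90AA1, the inducible cytosolic HSP90, had 9 raised regions and 1 other. The raised region with the highest share had 643, 554 and 435 RPM in arsenite and 88.5, 173 and 54.0 in PBS, while the other had a mean of 2432 in arsenite and 2079 in PBS. AHSA1, CHORDC1, DNAJA1, FKBP4, HSPB1, HSPE1, STIP1 and UBB, which are chaperones, co-chaperones and a ubiquitin gene, had regions in all 3 arsenite lists of which none was raised. HSP90AA1 shares long stretches with its pseudogene HSP90AA2P, which had 9 raised regions, and DNAJB1 with DNAJB1P1, which had 6, so which copy the reads came from is uncertain. Of all raised regions, 588 (23.3%) shared at least one 30-nt stretch with another region, against 35.8% of those not raised. The middle EGR1 region and the IER2 and FOSL1 regions given above were among the 588.

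NFE2L2 encodes NRF2, the transcription factor that switches on antioxidant genes. Its strongest raised region had 1671, 1353 and 1224 RPM in arsenite, 354, 173 and 383 in PBS and 242, 240 and 241 in DMSO. Another had 385, 197 and 169 in arsenite, 54.8, 124 and 31.5 in PBS and 30.2, 42.1 and 29.1 in DMSO. The genes that NRF2 is known to drive gave 3 raised regions of 25, in HMOX1 and FTL. HMOX1, heme oxygenase, had 42.2, 63.0 and 40.5 in arsenite and no PBS cluster. FTH1, GCLC, NQO1, PGD, SQSTM1, SRXN1, TXN and TXNRD1 had no raised region, and the sum over the list was 4637 ± 554 in arsenite, 5633 ± 474 in PBS and 3732 ± 414 in DMSO.

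Metal-responsive genes had 13 of 15 regions raised, from all 5 of their genes with a region in all 3 arsenite lists. The metallothionein gene MT2A had 178, 189 and 134 RPM in arsenite, 152, 0 and 94.6 in PBS and 70.6, 61.1 and 67.5 in DMSO. Its arsenite and PBS values overlapped, since PBS replicate 1 was above arsenite replicate 3. SLC30A1, a zinc exporter, had 5 raised regions and MTF1, the metal-sensing transcription factor, 2. Metallothionein genes resemble each other: both MT2A regions and the stronger region of MT1E and of MT1X shared a 30-nt stretch with another region, so their values are uncertain.

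Genes of the unfolded protein response held raised regions as well. The endoplasmic reticulum list had 12 of 16 regions raised, in CALR, DNAJC3, HERPUD1, HSP90B1 and XBP1, whereas the BiP gene HSPA5 and PDIA6 had none. The list of ATF4 and CHOP targets had 9 of 18 (50.0%, beside 36.0% of all), in ATF3, CHAC1, SESN2 and STC2, whereas ATF4, GDF15, TRIB3 and VEGFA had none. ATF3, a stress-induced leucine zipper factor, had 2117, 2133 and 1375 RPM in arsenite, 426, 0 and 347 in PBS and 534, 410 and 657 in DMSO. HERPUD1, a component of endoplasmic reticulum-associated degradation, had 225, 197 and 151 in arsenite, 25.3, 0 and 0 in PBS and 0, 16.3 and 6.56 in DMSO.

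In the remaining lists the share of raised regions ran from 56.2% in YAP-TEAD targets to 0 in epithelial markers, beside 36.0% of all regions. IGF2BP genes and known targets had 22 of 48 regions raised, 11 of them in CD44, which encodes a hyaluronan receptor. YAP-TEAD targets had 9 of 16, of which 3 were at least 2 times DMSO. The sum over that list was 1815 ± 176 RPM in arsenite, 1182 ± 748 in PBS and 2072 ± 317 in DMSO. Its arsenite mean was thus below the DMSO mean and below the highest PBS library (1846). Targets of p53 had 6 of 26, and their sum was 9749 ± 1184 RPM in arsenite, 15923 ± 4473 in PBS and 11341 ± 3041 in DMSO. Ribosomal protein genes had 8 of 90 (8.89%), with sums of 7981 ± 545 in arsenite, 12842 ± 1071 in PBS and 9308 ± 1665 in DMSO. Their sums were 7026 ± 814 at TM 1 h and 12534 ± 1097 at TM 4 h. For both the p53 and the ribosomal list, arsenite and DMSO libraries overlapped. Because shares within a library sum to a fixed total, a higher share of some regions lowers the share of others. Markers of colon epithelium had 0 of 3.

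**Figure D3:**
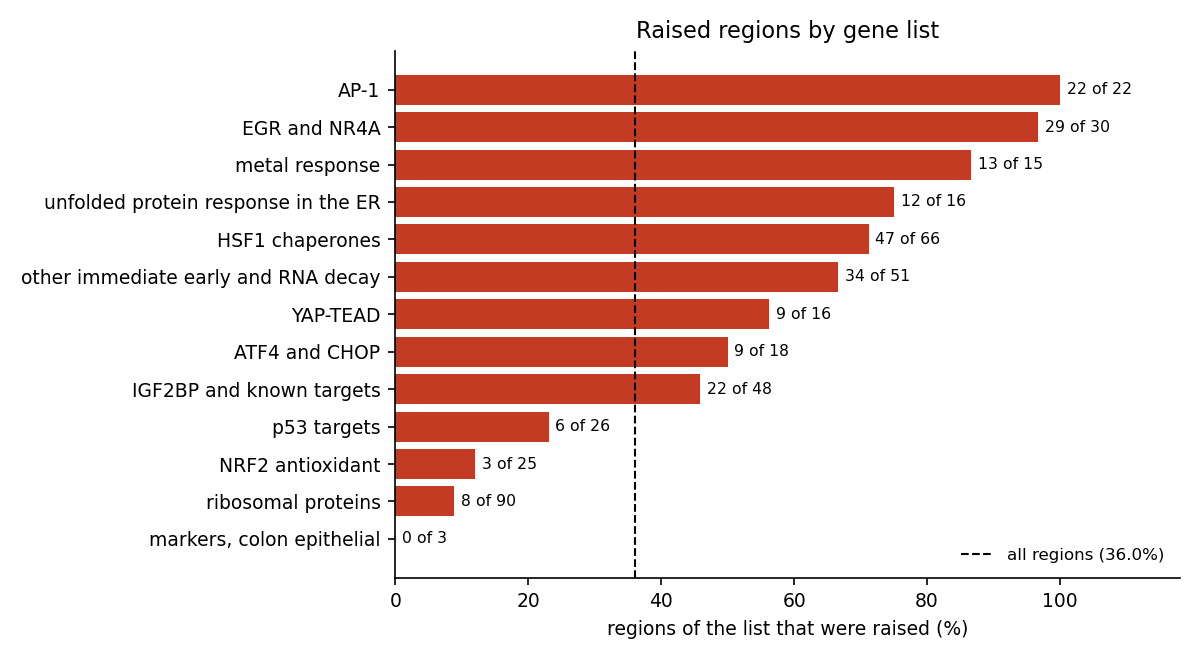
Percentage of regions in all 3 arsenite lists that were raised, for each gene list with such a region, with the numbers of regions beside the bars; the dashed line is the 36.0% of all 7001 regions. AP-1 (22 of 22) and EGR and NR4A (29 of 30) stand at the top and ribosomal proteins (8 of 90) near the bottom. Regions with no PBS cluster meet the ratio by the rule, so the order of the bars is partly built in. Such regions numbered 19 in AP-1, 23 in EGR and NR4A and 21 in HSF1 chaperones. The other immediate early and RNA decay list had 17 and ribosomal proteins 1.

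The 2443 raised regions with a single named gene lay in 1349 genes, and 89.5% of all raised regions were in protein-coding genes, against 83.7% of those not raised. A single raised region was found in 846 genes and 5 or more in 87. Most were in FAT1, an atypical cadherin, with 20 of 33 regions raised, followed by SRRM2 (17 of 17), ATXN2L (11 of 12), CD44 (11 of 19), and CLTC (10 of 12) and UBAP2L (10 of 10). SRRM2 is a scaffold of nuclear speckles, CLTC the clathrin heavy chain, and ATXN2L and UBAP2L are stress granule proteins. SRRM2 summed to 3425 ± 413 RPM in arsenite, 606 ± 268 in PBS and 967 ± 56.1 in DMSO, with its strongest region at 1338, 1035 and 876 in arsenite and 459, 322 and 293 in PBS. In FAT1 the gene's sum was 5665 ± 706 in arsenite and 3456 ± 821 in PBS, a ratio of 1.64.

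Within many of these genes, some regions met the rule and others did not. In 633 genes every region in all 3 arsenite lists was raised, while 716 also held other regions. In 289 of those 716 the other regions had a higher summed arsenite than PBS share, and the median over the 716 genes of that ratio was 0.878. The rule keeps each of these other regions below a ratio of 2, so their lower ratio beside the raised regions is built in. Over all 1349 genes, the whole gene's share was at least 2 times higher in arsenite than in PBS in 676 genes and than in DMSO in 483. These genes were chosen for holding a raised region, so a high count is partly built in. The median gene ratio to PBS was 2.16 in them. It was 0.808 in the 1431 genes that had regions in all 3 arsenite lists but none raised. The matching counts over all 2780 genes are not given here.

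Raised regions lay farther from the end of the gene than the others. Among regions in genes whose orientation was known, 37.0% of 1943 raised regions and 65.5% of 3126 others had their middle in the last 10% of the annotated gene. The median place was 83.5% of the way from the gene's start for raised regions and 94.6% for the others. The difference was there at each read level, with 38.3% against 64.3% for 40 to 79 reads, 36.4% against 65.9% from 80 to below 160 and 32.1% against 66.1% for 160 or more. It was also there with clusters in at least 2 PBS lists (42.9% against 65.4%), and among raised regions at least 2 times DMSO the share was 26.7%. In the 575 genes with both kinds, the median raised region was nearer the gene's start in 456 genes and nearer its end in 119. These are places along the genomic span, introns included, and exon, intron and UTR placement was not analysed here.

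**Figure D4:**
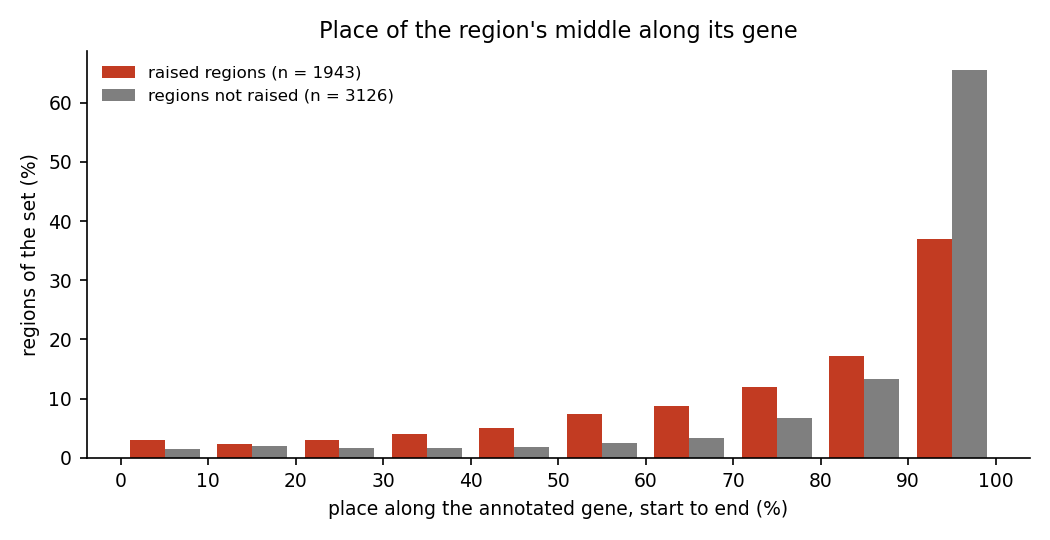
Percentage of the 1943 raised regions and 3126 regions not raised whose middle fell in each 10% of the annotated gene, from start (0) to end (100). The last 10% holds 37.0% of the raised regions and 65.5% of the others, and the raised regions have the higher percentage in each earlier bin.

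Raised regions also differed in base composition. They held 27.5% T and 27.5% C, against 31.9% T and 24.1% C in the regions not raised. GC content was 46.5% against 42.4%. In the 575 genes with both kinds, the raised regions had the lower T content in 413. The difference remained by place, at 29.3% against 32.3% T in the last 10% of the gene and 26.3% against 31.4% before it. T is also the base at which conversions are counted, and its part in the calling of these clusters was not tested.

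Motifs were counted on the RNA strand of the deposited sequences, per 1000 nt. The IGF2BP-like motifs CATT, CATC and CATA together gave 17.0 matches in raised regions and 17.7 in the others, and 85.2% and 89.4% of regions held at least 1. The total hides a shift between them, since CATC gave 7.05 against 5.22, CATT 6.51 against 8.23 and CATA 3.45 against 4.28. Runs of TTTTT gave 2.97 against 6.02, and the AU-rich ATTTA 1.25 against 1.99, TATTTAT (which can overlap it) 0.164 against 0.230 and the Pumilio motif TGTANATA 0.0792 against 0.197. GGAC, the core of the m6A motif, gave 3.15 against 2.40 and ACACA 2.04 against 1.80. Base composition differs between the sets as given above, its part in these counts was not tested, and a match is not evidence of a bound site.

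The share of conversion events at the listed positions was higher in raised regions than in the others in every anti-IGF2BP3 library. In the libraries of the rule it was 9.76%, 9.55% and 9.39% against 8.36%, 8.14% and 8.05% in arsenite and 9.28%, 9.78% and 9.39% against 7.79%, 8.22% and 7.75% in PBS. The libraries outside the rule gave 9.28%, 8.56% and 8.62% against 7.81%, 7.41% and 7.51% in DMSO, and 9.92%, 9.27% and 8.32% against 8.43%, 8.04% and 7.30% at TM 4 h. Within the raised regions the arsenite and PBS values overlapped, and depth was not matched.

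Tunicamycin provides libraries that took no part in choosing the regions, and its comparisons with DMSO are the tests here. TM 1 h and TM 4 h share the 3 DMSO libraries. The DMSO cells were treated for 4 h, so at TM 1 h treatment and time cannot be told apart. The test, edgeR's quasi-likelihood test on cluster reads with adjustment over all 12515 regions that passed the low-count filter, included 1662 of the 2523 raised regions. At TM 4 h 0 raised regions were called at an adjusted p under 0.05, beside 2 regions of all tested (0.016%). At TM 1 h 0 were called, beside 0 of all (0.0%). In simulated data this test called 0% of regions changed 2-fold and 31% of those changed 4-fold. An absent call thus does not show an absent change. The region test also made 2 false calls in simulated data without any change and 3 in those with changes, so few calls carry little weight. DESeq2 called 4 raised regions at each time, beside 0.352% of all at TM 4 h and 0.144% at TM 1 h. At an unadjusted p under 0.05, 26 raised regions (1.56%) passed at TM 4 h, beside 2.39% of all. Of these 23 were higher, beside 1.28% of all, and 3 lower, beside 1.11%. At TM 1 h 50 (3.01%) passed, beside 2.68% of all, with 2 higher (0.487% of all) and 48 lower (2.19% of all). Leaving out TM 1 h replicate 3 took the TM 1 h number from 50 to 254 (16.4%), none higher, beside 11.1% of all. Leaving out TM 1 h replicate 1 took the TM 4 h number from 26 to 66 (3.33%), beside 3.51% of all. The filter passed 11365 and 17248 regions in these fits, so the regions tested differed too. The median log2 fold change of the raised regions was 0.26 at TM 4 h and -0.38 at TM 1 h, beside 0.03 and -0.21 over all regions. With library totals in place of TMM factors the median at TM 1 h was -0.01 over all regions and -0.21 over the raised regions.

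The lowest adjusted p among raised regions at TM 4 h belonged to HERPUD1. Its region, chr16:56940119-56940237, had 0, 18.6 and 8.04 CPM in DMSO, no cluster in any TM 1 h library and 170, 267 and 170 CPM at TM 4 h, with no overlap. The log2 fold change at TM 4 h was 4.28 ± 0.66 (SE), with an unadjusted p of 7.6e-05 and an adjusted p of 0.158 (edgeR), so it was not called.

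Summing cluster reads over all regions of a gene gave more reads per test. This test was added after the data were seen, because the deposited gene table could not be joined to gene names. Of 5478 genes tested, 1296 held raised regions. In simulated data the gene test called 20% of genes changed 2-fold and 54% of those changed 4-fold. It made 0 false calls without any change and 5 with changes. At TM 4 h 5 of the 1296 genes with raised regions were called (edgeR), all higher. Beside them, 0.201% of all genes were called in either direction, 0.183% higher (10 genes) and 0.0183% lower. DESeq2 called 23 of them, beside 0.694% of all. At an unadjusted p under 0.05, 59 passed, beside 2.14% of all, of which 40 were higher (1.28% of all) and 19 lower (0.858% of all). At TM 1 h 0 were called by edgeR, beside 0.0% of all, and 6 by DESeq2, beside 0.11% of all. There 45 passed at an unadjusted p under 0.05, beside 2.15% of all, with 13 higher (0.621% of all) and 32 lower (1.53% of all). All 5 belong to the unfolded protein response lists.

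HERPUD1 had 0, 16.2 and 6.44 CPM in DMSO, no cluster at TM 1 h, and 443, 762 and 347 CPM at TM 4 h, with an adjusted p of 9.7e-05 (edgeR) and a log2 fold change of 5.77 ± 0.55 (SE). HSP90B1, the endoplasmic reticulum HSP90, had 87.7, 66.1 and 90.1 in DMSO and 491, 604 and 403 at TM 4 h, a log2 fold change of 2.62 ± 0.28 with an adjusted p of 0.00012 (edgeR). XBP1, the transcription factor activated by IRE1 splicing, had 124, 144 and 155 in DMSO and 483, 462 and 300.2 at TM 4 h, a log2 fold change of 1.53 ± 0.27. In these genes every TM 4 h library was above every DMSO library.

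The same held for SESN2, a stress-induced inhibitor of mTORC1 signalling, with 170, 210.5 and 182 CPM in DMSO and 487, 673 and 426 at TM 4 h (log2 fold change 1.48 ± 0.25). It also held for STC2, a secreted glycoprotein induced by ATF4, with 206, 271 and 247 in DMSO and 664, 1060.4 and 590 at TM 4 h (log2 fold change 1.66 ± 0.25). Adjusted p-values by edgeR were 0.0148 for XBP1, 0.00986 for SESN2 and 0.00463 for STC2. HERPUD1 and HSP90B1 were called under all 15 alternatives. XBP1 was lost without any of DMSO replicates 1, 2 or 3 or TM 4 h replicates 1 or 2, SESN2 without any of DMSO replicates 1, 2 or 3 or TM 4 h replicate 2, and STC2 without TM 4 h replicate 2. All 3 calls were also lost with replicates 1 and 2 only (library set S142), at adjusted p-values of 0.139 for XBP1, 0.194 for SESN2 and 0.125 for STC2 (edgeR). Their adjusted p in those fits ranged up to 0.241 (edgeR), and all fold changes stayed above 0.

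In arsenite these 5 genes summed to 376 ± 66.0 RPM for HERPUD1 (PBS 8.43 ± 14.6), 629 ± 65.8 for HSP90B1 (PBS 25.5 ± 44.2), 320 ± 84.7 for XBP1 (PBS 74.1 ± 64.1), 537 ± 69.0 for SESN2 (PBS 193 ± 71.4) and 371 ± 52.9 for STC2 (PBS 297 ± 151). Arsenite and PBS means thus stood far apart for HERPUD1 and HSP90B1 and within the PBS spread for STC2. Of the whole lists, 4 of 12 tested endoplasmic reticulum genes and 5 of 12 ATF4 and CHOP targets rose at TM 4 h and 0 fell (edgeR), beside 0.183% of all genes higher and 0.0183% lower. ATF3, which led the ATF4 list in arsenite, had 569 ± 153 CPM in DMSO and 621 ± 160 at TM 4 h, a log2 fold change of 0.11 ± 0.26 that was not called. HSPA5, with no raised region, rose at TM 4 h by a log2 fold change of 2.61 ± 0.27 (edgeR, adjusted p = 9.7e-05).

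The genes that led the raised regions in arsenite were not called by edgeR in either tunicamycin comparison. Given the simulated data above, this does not show that they were unchanged. EGR1 had 835 ± 205 CPM at TM 1 h and 1575 ± 503 at TM 4 h against 2114 ± 568 in DMSO, with adjusted p-values of 0.879 and 1.00 (edgeR). DNAJB1 had 401 ± 30.4 CPM at TM 1 h and 248 ± 32.3 at TM 4 h against 233 ± 9.38 in DMSO. The log2 fold changes at TM 1 h were -1.32 ± 0.29 (SE) for EGR1 and 0.77 ± 0.22 for DNAJB1. Their unadjusted p-values there were 0.00033 and 0.0028 (edgeR). In the AP-1 list 0 of 4 tested genes and in the HSF1 list 0 of 17 were called by edgeR at either time, beside 0.0% of all genes at TM 1 h and 0.201% at TM 4 h, and FOS, FOSB and JUN did not pass the filter on low counts.

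**Figure D5:**
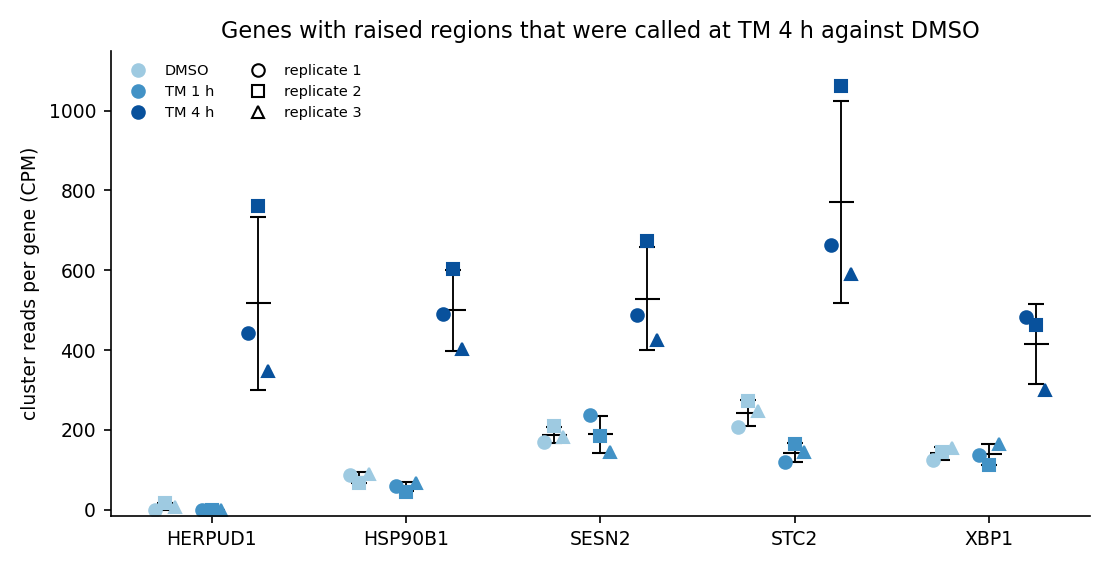
Cluster reads per gene in CPM for the 5 genes with raised regions that were called at TM 4 h against DMSO; points are libraries and bars give mean and SD of 3 libraries. Every TM 4 h point lies above every DMSO and TM 1 h point of its gene, and HERPUD1 has no cluster at TM 1 h. A direct test of TM 4 h against TM 1 h called 0.347% of all genes, these 5 among them.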

How the data were processed

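Per the submitters' processing notes, bcl2fastq 2.20.0.422, UMI-tools 1.1.1, Trimmomatic 0.30, Bowtie 0.12.7 and featureCounts 2.0.1 were used, with builds GRCh38.p13 and hg38. Per the file headers, each deposited cluster list gives position, strand, sequence, read count and counts of conversion events; the cluster caller is not given in the sources used here. The authors called clusters per library, with at least 2 reads and 2 conversion locations in the values. The deposited score of each cluster's mode position was not used. The deposited gene counts have 0 columns without a sample.

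A share is a region's reads divided by the library's cluster reads, without the mitochondrial chromosome, in reads per 1000000 (RPM). Genes came from RefSeq spans of GRCh38.p14, matched without strand where the gene's orientation is not in the table; 86 of 86 clusters inside its promoters were identical in sequence. Tests used edgeR 4.0.16 (R 4.3.3) with filterByExpr, TMM, 1 fit over the 9 DMSO and tunicamycin libraries, two-sided p-values and Benjamini-Hochberg adjustment at 0.05; DESeq2 1.42.0 was an alternative. Python 3.11.15 made the regions. The SE is the log2 fold change divided by the square root of F. CPM are counts per 1000000 of the TMM-scaled total.

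The planned tests on the gene counts were not run, because the identifiers in that table could not be matched to gene symbols; cluster reads per gene replaced them, an alternative chosen after seeing the data. The regions and gene lists were chosen with earlier results of these data known. Named regions are the 12 with the highest arsenite share, the 12 with the largest ratio and clusters in all 3 PBS lists, the 8 highest without a PBS cluster, 2 on each side of the threshold, those called with tunicamycin, the 5 genes with most regions, and list members. Same-numbered libraries of the DMSO and tunicamycin groups had correlated deviations of -0.01 to 0.19, and differently numbered ones -0.19 to 0.08. The highest, 0.18 to 0.19, were among replicates 3, which are library set S141. The main fit did not take the numbers as pairs, and a fit with them as a block is given as an alternative. Libraries of a group differed beyond sampling noise (chi-square 3.65 to 8.04 per region). The tests were also tried on simulated data, drawn with the means and spread of the fitted counts, with 200 features changed 2-fold or 4-fold at TM 4 h. The values of 1 gene among the named regions are not reported here.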

Additional observations from a re-analysis of the deposited data

Results flagged for a closer look

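The response of 5 genes with raised regions differed between the tunicamycin times, by a direct test of TM 4 h against TM 1 h on cluster reads per gene (edgeR, adjusted over 5478 genes). It is a contrast within the fit over all 9 libraries, so the DMSO libraries enter the estimate of the spread. That test called 19 genes (0.347%), of which 10 held raised regions, 9 of them higher at 4 h. The 5 genes given here were taken because they were called at TM 4 h against DMSO. The same TM 4 h libraries enter both comparisons, so this choice favours a positive difference. HERPUD1 had a log2 difference of 11.29 ± 0.99 (SE, adjusted p = 5.8e-05); since no TM 1 h library listed a cluster of it, that size depends on the prior count of the fit. HSP90B1 had 3.08 ± 0.31 (adjusted p = 5.8e-05) and STC2 2.40 ± 0.27 (adjusted p = 0.00018). SESN2 had 1.55 ± 0.26 (adjusted p = 0.0145) and XBP1 1.55 ± 0.28 (adjusted p = 0.0171). In each of the 5 genes all 3 TM 4 h libraries were above all 3 TM 1 h libraries.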

How the results depend on the processing

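The number of raised regions was 2523. It became 4007 with a minimum of 20 reads and 1038 with 80, and ranged from 1176 to 2870 when 1 of the 6 libraries was left out; 1176 is without arsenite replicate 3. Asking for 2 times DMSO as well, or summing reads over a group, both added after seeing the data, gave 1751 and 1962. Raised regions called at TM 1 h went from 0 to 4 with DESeq2, beside 18 of all 12515 regions. Without a filter there were 3, beside 31 of all 39475. At TM 4 h they went from 0 to 1 with library totals, beside 2 of all regions, and 4 with DESeq2, beside 44. They were 4 without a filter, beside 65 of all 39475, and 2 with all 15 lists merged, beside 11 of all 11153. Leaving out a library gave 0 to 0 at both times. Genes with raised regions called at TM 1 h went from 0 to 6 with DESeq2, beside 6 of all genes, and 3 without a filter, beside 4. At TM 4 h they went from 5 to 23 with DESeq2, beside 38 of all, and 2 with replicates 1 and 2 only, beside 4. Leaving out a library gave 2 to 5, beside 4 to 12 of all. The causes were not tested. With the replicate number as a block, which the main fit left out, 0 raised regions were called at either time. Over all regions it called 0 at TM 1 h and 1 at TM 4 h. At TM 4 h it called 7 genes with raised regions, beside 12 of all 5478 genes. The T content of raised regions was 4.3 points lower than that of other regions, a difference of -4.31, and -3.14 against all regions with 40 reads. The planned tests on the gene count table and their alternatives were not run.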

Other observations

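A pair of raised regions lay outside the annotated span of FOSL1, 1452 and 298 nt away, with clusters on the same strand as the region inside it; the gene's orientation was not in the table used. The farther one, chr11:65890098-65890597, had 756, 617 and 371 RPM in arsenite, no PBS cluster, and 0, 10.9 and 33.7 in DMSO. The nearer one had 164, 118.2 and 87.1 in arsenite, no PBS cluster, and 0, 0 and 9.37 in DMSO. The FOSL1 region inside the gene, by contrast, was 2.02 times its PBS mean. These regions were singled out after their values were seen. In all, 5 raised regions and 25 regions not raised lay within 5000 nt downstream of a coding gene, reading along the clusters' strand.

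The proliferation marker MKI67 held 9 raised regions of 10. Its summed share was 1160 ± 240.3 RPM in arsenite, 190.4 ± 165 in PBS and 755 ± 124 in DMSO (SD, n = 3), so it was 6.09 times the PBS mean and 1.54 times the DMSO mean. At TM 1 h it was 467 ± 142.99 and at TM 4 h 892 ± 46.0.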
